A study of Mus musculus with 2 samples.

Results

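The Fc gamma receptor genes of the mouse are Fcgr1, Fcgr2b, Fcgr3 and Fcgr4, and Fcer1g encodes the signalling chain that the activating receptors share. These 5 genes were chosen by name, out of 22605 genes with a row in the deposited table, and all 5 had a row. Their chromatin was measured by DHS-seq, in which DNA released by DNase I is sequenced, in M1 cells, a mouse myeloid leukemia line that grows as progenitors and differentiates toward macrophages when interleukin-6 (IL-6) is added. The untreated cells (M1) gave 1 library, and cells cultured with IL-6 (M1+IL-6), for which the labels give 4 to 5 days, gave the other. The labels give no genetic change for either. There were no replicates, and no test across libraries was possible. M1 is a single line of leukemic cells, and how many of the treated cells had differentiated was not given in the labels.

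Fc gamma receptors bind the constant part of IgG on coated particles and immune complexes. FcγRI, FcγRIII and FcγRIV, the products of Fcgr1, Fcgr3 and Fcgr4, depend on the Fcer1g chain, whose phosphorylated tyrosines recruit kinases and start phagocytosis and cytokine release. FcγRIIB, the product of Fcgr2b, carries an inhibitory motif in its own tail and dampens these signals. Macrophages are known for holding activating and inhibitory receptors side by side. DNase I cuts open chromatin first. The readout below is thus the openness over the gene's coding span, from start to stop codon, and is no measure of RNA or protein.

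4 of the 5 genes lie on chromosome 1 and 1 lies on chromosome 3. On the NCBIM37 build with GENCODE M1 genes, Fcgr2b (ENSMUSG00000026656.9) spans chr1:172890689-172906678 on the minus strand, Fcgr4 (ENSMUSG00000059089.4) spans chr1:172949051-172959892 on the plus strand, and Fcgr3 (ENSMUSG00000059498.6) spans chr1:172981300-172995066 on the minus strand. The coding spans of Fcgr2b and Fcgr4 are 43.0 kb apart, and those of Fcgr4 and Fcgr3 are 22.4 kb apart. Fcer1g (ENSMUSG00000058715.6) lies further along the same chromosome at chr1:173159703-173164496, on the minus strand. Fcgr1 (ENSMUSG00000015947.5) is the gene apart, at chr3:96086832-96098179 on the minus strand.

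The promoters of 4 members are shown because the genes differed most in signal, the first pair having the strongest and the second pair the weakest. The sequences are RefSeq promoters of GRCm38.p6, from 250 bases before to 50 bases after the start of the transcript, 5′ to 3′ along the gene, and each was found exactly 1 time in NCBIM37. There they lie at chr3:96097843-96098142 (minus strand) for Fcgr1, chr1:173164431-173164730 (minus strand) for Fcer1g, chr1:172948807-172949106 (plus strand) for Fcgr4 and chr1:172989485-172989784 (minus strand) for Fcgr3. Capitals mark the letters of GAGGAA, the core bound by the myeloid factor PU.1, read as TTCCTC on the strand printed, and of TTCNNNGAA, the GAS element bound by the STAT factors that act below the IL-6 receptor.
Fcgr1: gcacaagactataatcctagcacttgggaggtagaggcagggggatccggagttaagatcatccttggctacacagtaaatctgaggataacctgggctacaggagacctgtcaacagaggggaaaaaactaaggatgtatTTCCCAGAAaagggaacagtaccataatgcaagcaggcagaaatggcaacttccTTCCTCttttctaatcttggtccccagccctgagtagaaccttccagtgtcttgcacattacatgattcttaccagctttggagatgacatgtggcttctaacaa
Fcer1g: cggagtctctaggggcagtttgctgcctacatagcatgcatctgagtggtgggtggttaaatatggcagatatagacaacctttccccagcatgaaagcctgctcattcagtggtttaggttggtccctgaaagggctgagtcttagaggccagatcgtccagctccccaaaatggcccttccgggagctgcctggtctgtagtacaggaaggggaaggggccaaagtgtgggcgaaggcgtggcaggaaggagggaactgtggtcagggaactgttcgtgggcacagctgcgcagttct
Fcgr4: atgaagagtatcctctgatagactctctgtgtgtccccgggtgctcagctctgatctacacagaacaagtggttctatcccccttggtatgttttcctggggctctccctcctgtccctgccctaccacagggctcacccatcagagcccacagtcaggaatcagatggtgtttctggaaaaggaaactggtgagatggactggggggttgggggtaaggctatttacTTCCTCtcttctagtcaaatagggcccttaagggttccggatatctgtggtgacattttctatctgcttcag
Fcgr3: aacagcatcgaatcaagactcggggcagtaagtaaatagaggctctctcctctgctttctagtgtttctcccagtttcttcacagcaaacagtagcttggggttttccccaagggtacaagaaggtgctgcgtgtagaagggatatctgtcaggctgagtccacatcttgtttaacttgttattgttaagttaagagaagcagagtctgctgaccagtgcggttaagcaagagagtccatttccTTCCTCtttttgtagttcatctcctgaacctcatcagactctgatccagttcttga

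Both strands were searched. GAGGAA was found in the promoters of Fcgr1, Fcgr4 and Fcgr3, each time on the strand opposite to the gene. It began 55 bases before the start of Fcgr1 (position -55), at -22 in Fcgr4 and at -6 in Fcgr3, or at -15 counted from the other start that RefSeq gives for Fcgr3. TTCNNNGAA, a pattern that is the same on both strands, was found in Fcgr1 alone among the members. It began at -109 and did not overlap the other motif. Neither motif was in these windows of Fcer1g or Fcgr2b, and TATAAA, the TATA box, was in none of the 5. Of all 32851 RefSeq promoters of the same length, 28.3% held GAGGAA, 8.30% held TTCNNNGAA and 13.6% held TATAAA. A match of letters is a description and shows no binding. The promoter of Fcgr1 had 1 CpG, that of Fcgr4 had 2, that of Fcgr3 had 4, that of Fcgr2b had 6 and that of Fcer1g had 7, beside a median of 7 over all promoters.

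The table gives, for the coding span of each transcript (start to stop codon), the mean number of reads over the 700-bp windows it touches and the SD among those windows. Reads were recovered from these means, and each read of the IL-6 library had been scaled to 1.03816. Nonoverlapping spans of the whole table held 9102320 reads in M1 cells and 8544903 in M1+IL-6 cells, or 7.58 and 7.12 reads per window. Over all genes the median level was 7.75 reads per window in M1 and 8.14 scaled reads per window in M1+IL-6. Of the cell type markers, the 6 progenitor genes had a median log2 ratio of M1+IL-6 over M1 of -0.09, the 6 macrophage genes one of -0.62 and the 5 genes of other types with enough reads one of 0.49, and the part of cell type in the ratios below was not tested. In M1 the median of these lists was 10.2, 17.7 and 6.67 reads per window.

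In untreated M1 cells Fcer1g and Fcgr1 had the strongest DNase I signal of the family, and Fcgr4 and Fcgr3 lay below the median of all genes. After IL-6 Fcer1g and Fcgr1 were at less than 0.5 of their former signal, Fcgr2b was lower by a smaller factor, and the intervals of Fcgr4 and Fcgr3 held a ratio of 1, all with the scaling as deposited. Where the libraries were instead scaled by the median ratio of 544 strong single windows, which shifts every log2 ratio by 1.83, Fcer1g (0.56), Fcgr1 (0.59) and Fcgr2b (1.45) turned higher, while 3 other scalings left the direction of each gene as it was. The directions given for other genes and lists rest on the deposited scaling in the same way. By their values the 5 genes kept 1 order in both libraries, but in M1+IL-6 neither Fcer1g and Fcgr1 nor Fcgr4 and Fcgr3 differed beyond counting error. Intervals are exact 95% intervals, Poisson for a level and Clopper-Pearson for a ratio. They cover counting error only, and the ratios compare these 2 libraries and not the conditions. A lower signal in fewer open cells and a lower signal in every cell cannot be told apart in bulk libraries.

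Fcer1g, the signalling chain, had 288 reads over its 7 windows in M1 cells and 115 reads in M1+IL-6 cells. This was 41.1 reads per window (interval 36.5 to 46.2) in M1 and 17.1 scaled reads per window (14.1 to 20.5) in M1+IL-6. The level stood above that of 94.2% of genes in M1 and 88.2% in M1+IL-6. The ratio was 0.415 (0.331 to 0.516), which is -1.27 on the log2 scale. The gene was thus 2-fold or more lower after IL-6.

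Fcgr1, the high-affinity IgG receptor, had 484 reads over 15 windows in M1 cells and 197 reads in M1+IL-6 cells. Its level was 32.3 reads per window (29.5 to 35.3) in M1 and 13.6 scaled reads per window (11.8 to 15.7) in M1+IL-6. These levels stood above those of 92.1% and 79.7% of genes. The ratio of 0.423 (0.356 to 0.50), or -1.24 on the log2 scale, was close to that of Fcer1g, with a ratio of the 2 ratios of 1.02 (0.770 to 1.35).

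Fcgr2b, the inhibitory receptor, had 255 reads over 22 windows in M1 cells and 189 reads in M1+IL-6 cells. Its level was 11.6 reads per window (10.2 to 13.1) in M1 and 8.92 scaled reads per window (7.69 to 10.3) in M1+IL-6. The ratio was 0.769 (0.634 to 0.932), or -0.38 as log2. The interval lay below 1, and the gene moved from above 67.8% to above 55.6% of genes.

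Fcgr4, an activating receptor of intermediate affinity, had 85 reads over 15 windows in M1 cells and 91 reads in M1+IL-6 cells. This was 5.67 reads per window (4.53 to 7.01) in M1 and 6.30 scaled reads per window (5.07 to 7.73) in M1+IL-6, at a ratio of 1.11 (0.818 to 1.51), or 0.15 as log2. Fcgr3, the activating receptor of low affinity, had 40 reads over 12 windows in M1 cells and 52 in M1+IL-6 cells. Its level was 3.33 reads per window (2.38 to 4.54) in M1 and 4.50 scaled reads per window (3.36 to 5.90) in M1+IL-6, at a ratio of 1.35 (0.877 to 2.09), or 0.43 as log2. Both levels of both genes were below the median of all genes. With the deposited scaling and so few reads, a difference of this size was not detectable for either gene. Under the scaling by strong windows both intervals lay above 1, at 2.90 to 5.36 for Fcgr4 and 3.11 to 7.42 for Fcgr3.

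**Figure D1:**
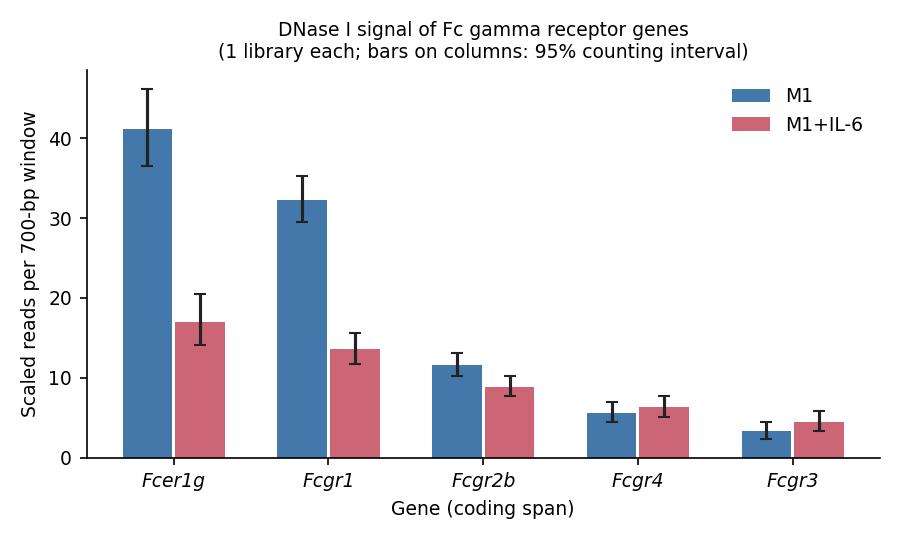
Reads per 700-bp window (M1) and scaled reads per 700-bp window (M1+IL-6) of the 5 genes, with exact 95% Poisson intervals. Fcer1g and Fcgr1 lie highest in both libraries, at 41.1 and 32.3 in M1 and at 17.1 and 13.6 in M1+IL-6 with the deposited scaling, the direction turning under the scaling by strong windows.

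Neighbours in the order of levels were compared within each library, where no scaling enters. In M1 cells Fcer1g exceeded Fcgr1 by 1.28 times (1.10 to 1.48), Fcgr1 exceeded Fcgr2b by 2.78 times (2.39 to 3.25), Fcgr2b exceeded Fcgr4 by 2.05 times (1.59 to 2.65) and Fcgr4 exceeded Fcgr3 by 1.70 times (1.15 to 2.54). Each step was larger than its counting error. These levels are means over the windows of each span, 7 for Fcer1g and 15 for Fcgr1. The possible ranges of their strongest windows in M1, 118 to 165 and 110 to 209 reads, overlap. In M1+IL-6 cells the steps were 1.25 (0.985 to 1.58), 1.53 (1.25 to 1.88), 1.42 (1.10 to 1.84) and 1.40 (0.985 to 2.01). There Fcer1g and Fcgr1 did not differ beyond counting error, and neither did Fcgr4 and Fcgr3.

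Of the 5 members, 2 were 2-fold or more lower after IL-6, beside 13.5% of the 18204 genes whose libraries together held 40 reads or more. None was 2-fold or more higher, beside 1.18% of these genes. The interval of the ratio lay below 1 for 3 members, beside 34.8% of these genes, and above 1 for none, beside 28.9%. The median log2 ratio was -0.38 over the members and 0.02 over these 18204 genes. The ratios of Fcer1g, Fcgr1 and Fcgr2b stood above those of 9.07%, 9.45% and 30.0% of the genes, and those of Fcgr4 and Fcgr3 above those of 58.3% and 79.2%.

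Members were also compared by the ratio of their ratios, which no single scaling factor between the libraries can change. In 8 of the 10 pairs the exact conditional interval excluded 1. The ratio of Fcgr2b was 1.86 times (1.38 to 2.50) that of Fcer1g and 1.82 times (1.41 to 2.36) that of Fcgr1. Against Fcer1g, the ratio of Fcgr4 was 2.68 times (1.83 to 3.93) and that of Fcgr3 was 3.26 times (1.99 to 5.33) as high. Against Fcgr1 they were 2.63 times (1.85 to 3.74) and 3.19 times (2.00 to 5.12) as high. The ratio of Fcgr3 was 1.75 times (1.09 to 2.84) and that of Fcgr4 was 1.44 times (1.00 to 2.08) that of Fcgr2b, the latter with its lower bound close to 1. Fcgr3 and Fcgr4 did not differ beyond counting error (1.21, 0.709 to 2.08). Between these 2 libraries the ratios of Fcgr1 and Fcer1g thus differed beyond counting error from those of Fcgr2b, Fcgr4 and Fcgr3. These genes also differed in signal, and a link of the difference to receptor function was not tested.

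Members with more signal had lower ratios. Fcgr1 was set beside 270 genes whose summed signal over both libraries was within 10% of its own and whose number of windows was within 1.5 times. Of these, 87.8% were lower after IL-6, their median log2 ratio was -0.85, and 24.1% had a lower ratio than Fcgr1. For Fcer1g the 157 such genes had a median of -1.29, 93.6% were lower, and 52.9% had a lower ratio than Fcer1g. The 557 such genes of Fcgr2b had a median of -0.08, the 256 of Fcgr4 a median of 0.26 and the 128 of Fcgr3 a median of 0.36. Of these genes 30.0%, 38.7% and 56.2% had a lower ratio than the member. The ratio of each member thus lay within the range of genes of like signal, and what set the relation between signal and ratio was not tested.

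**Figure D2:**
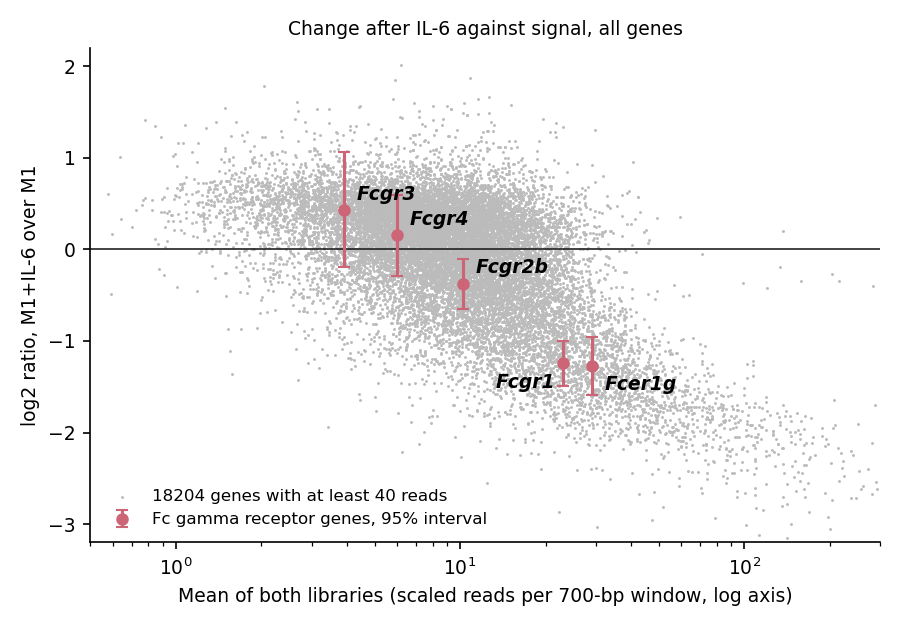
Log2 ratio of M1+IL-6 over M1 against the mean signal of the 2 libraries in reads per 700-bp window (log axis) for 18204 genes (grey, 0.5 reads added to each library) and the 5 members (labelled, with 95% Clopper-Pearson intervals), 34 genes lying outside the axes. The members with more signal, Fcer1g at -1.27 and Fcgr1 at -1.24, lie in the part of the cloud where most genes were lower, with the deposited scaling. Under the scaling by strong windows every point moves up by 1.83.

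Signal was unevenly spread within the 3 genes that were lower. In M1 cells the SD among windows was 54.9 reads for Fcer1g, 49.0 for Fcgr1 and 18.9 for Fcgr2b, in each case above the mean level. In M1+IL-6 cells it was 13.6, 14.9 and 7.57 scaled reads. Among the genes of like signal the median SD went from 54.5 to 12.2 for Fcer1g, from 46.1 to 12.2 for Fcgr1 and from 8.82 to 6.42 for Fcgr2b, whose own SD in M1 was above this median. Fcgr4 had an SD of 3.72 and then 5.53, and Fcgr3 of 2.84 and then 3.01.

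The mean and SD together bound the strongest window of a span, since reads and their squares are whole numbers. The strongest window of Fcer1g held between 118 and 165 reads in M1 cells and between 29.1 and 47.8 scaled reads in M1+IL-6 cells. In M1 it thus held between 41.0% and 57.3% of the gene's reads, and in M1+IL-6 between 24.3% and 40%. For Fcgr1 the bounds were 110 to 209 reads in M1 and 31.1 to 66.4 scaled reads in M1+IL-6. For Fcgr2b they were 42 to 96 reads and 15.6 to 42.6 scaled reads, so that the ranges of the 2 libraries met.

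In Fcer1g and Fcgr1 the ranges of the 2 libraries did not meet with the deposited scaling, but did under the scaling by strong windows, where the upper bounds in M1+IL-6 become 169 and 236. The study called hypersensitive sites by a read count above 21, without giving the window size or library for that count. Here the number was applied to the 700-bp windows of each library, scaled in M1+IL-6. The mean and SD bound the number of windows above it too. Fcer1g had 2 to 6 of them in M1 and 1 to 4 in M1+IL-6. In M1 the 3′ window of Fcgr1, with 26 reads, was above 21, as were 1 to 11 of its other 14 windows. In M1+IL-6 Fcgr1 had 1 to 7 such windows. Fcgr3 had 0 such windows in either library. Its strongest window held 6 to 12 reads in M1 and 7.27 to 13.5 scaled reads in M1+IL-6. Fcgr4 had none in M1, with a strongest window of 9 to 19 reads, and 0 to 1 in M1+IL-6, with 12.5 to 26 scaled reads.

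**Figure D3:**
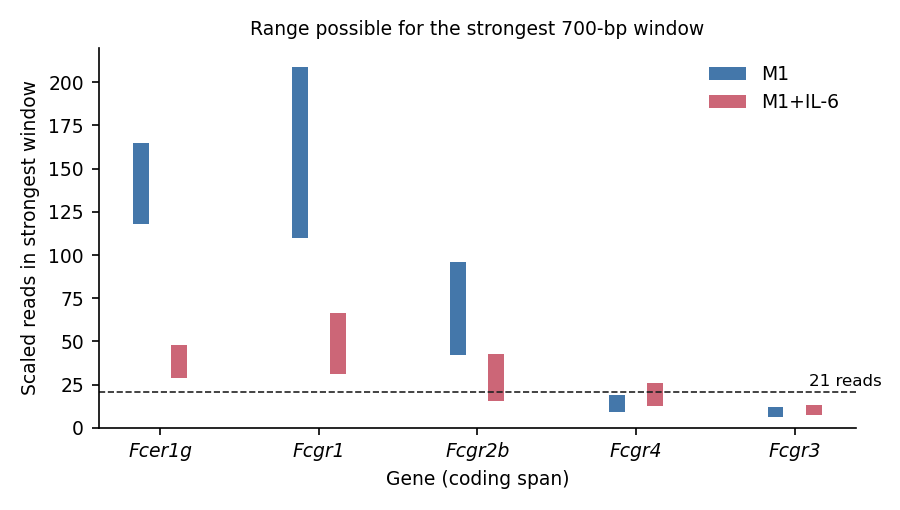
Range that the deposited mean and SD allow for the strongest 700-bp window of each gene, in reads (M1) and scaled reads (M1+IL-6). The ranges of the 2 libraries are apart for Fcer1g (118 to 165 against 29.1 to 47.8) and Fcgr1 (110 to 209 against 31.1 to 66.4) and overlap for the other members, with the deposited scaling. Under the scaling by strong windows the ranges of Fcer1g and Fcgr1 meet. The dashed line marks 21 reads.

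Transcripts with different ends gave the signal of parts of Fcgr1 and Fcgr3. The window at the 5′ end of Fcgr1, chr3:96098101-96098800, belongs to the span of the gene's other transcript of 15 windows and lies 209 to 908 bases upstream of the RefSeq start at position 96097892. It held 105 reads in M1 cells and 27 reads (28.0 scaled) in M1+IL-6 cells, so its ratio was 0.267 (0.168 to 0.411), or -1.89 as log2. Among 4349 single windows of the table it stood above 93.0% in M1 and above 89.3% in M1+IL-6.

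The 44 single windows of like summed reads had a median log2 ratio of -1.83, and 43 of them were lower after IL-6. The 3′ window of Fcgr1, chr3:96087601-96088300, held 26 and 14 reads, and the ratio of 0.559 (0.270 to 1.11) included 1. The 14 windows between these ends held 458 and 183 reads, with a ratio of 0.415 (0.348 to 0.493). The strongest signal of Fcgr1 lay among these 14 windows, which hold the RefSeq start. In Fcgr3 the 3 windows at the 5′ end of the coding span (chr1:172987501-172989600) held 15 and 16 reads. The 9 other windows held 25 and 36 reads. Their ratios of 1.11 (0.513 to 2.40) and 1.49 (0.873 to 2.60) both included 1. These 3 windows, which include the Fcgr3 promoter's start site, held at most 7 reads each in M1 and at most 8 in M1+IL-6. Only part of most promoters lay in the listed windows. Of 300 bases these windows held 106 for Fcgr4, 116 for Fcgr3 (125 from its other start), 148 for Fcgr2b and 170 for Fcer1g. With both transcripts of 15 windows they held all 300 for Fcgr1. The rest of the promoters was not measured, so low signal in Fcgr4 and Fcgr3 is that of their coding spans.

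Fcgr2b, Fcgr3 and Fcgr4 are similar genes, so the sequence of each span was searched in NCBIM37. The share of 32-bp sequences that also occur elsewhere in the genome was 15.8% for Fcgr3, 10.8% for Fcgr4, 10.3% for Fcgr2b, 9.19% for Fcgr1 and 6.55% for Fcer1g. For 50-bp sequences it was 6.96% for Fcgr3, 6.83% for Fcgr2b, 4.15% for Fcgr1, 3.76% for Fcgr4 and 2.37% for Fcer1g. Fcgr2b and Fcgr3 shared most with each other, with 213 of the 32-bp sequences, 1.39% of Fcgr2b and 2.55% of Fcgr3. How reads matching several places were counted was not given in the sources used here, and the low levels of Fcgr3 carry this limit. No window of a member was shared with the span of another gene.

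The genes within 100 kb differed between the members. Fcgr1 had 11 such neighbours, among them 9 histone genes, Bola1 and Sv2a, with a median log2 ratio of -2.34. Of the 11, 10 were 2-fold or more lower, beside 13.5% of the 18204 genes, and Sv2a was at 0.13. In M1 cells 9 of the 11 had more signal than Fcgr1, while the 13.5% covers genes of all levels. The part of signal in this count was not tested. The nearest, the histone gene Hist2h2bb at 6.39 kb, had 1495 reads in M1 cells and 284 in M1+IL-6 cells. Fcer1g had 13 neighbours, 11 of them with at least 40 reads, and their median was -0.51. Of these 11, 4 were 2-fold or more lower (beside 13.5%), among them Tomm40l, Ppox and Ufc1. Tomm40l, the lowest of them, had 77.6 reads per window in M1 and 26.4 scaled reads per window in M1+IL-6, and was the 1 neighbour stronger than Fcer1g in M1.

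Around Fcgr2b the neighbours Atf6, Dusp12, Fcrla and Fcrlb did not reach 2-fold in either direction, with Fcrlb at 0.36 and Fcrla at -0.30. Next to Fcgr3 lay Sdhc (-0.37) and 1700009P17Rik (-0.63), both with more signal than Fcgr3 in M1. Over all neighbours, 29 genes of which 27 had at least 40 reads, the median was -1.28, 14 were 2-fold or more lower (beside 13.5%) and none was 2-fold or more higher (beside 1.18%). Of the 14, 10 were neighbours of Fcgr1, 9 of them histone genes, and the part of signal in these counts was not tested. Along chromosome 1, weak signal in the coding spans of Fcgr4 and Fcgr3 thus stood between the more open spans of Fcgr2b and Fcer1g.

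**Figure D4:**
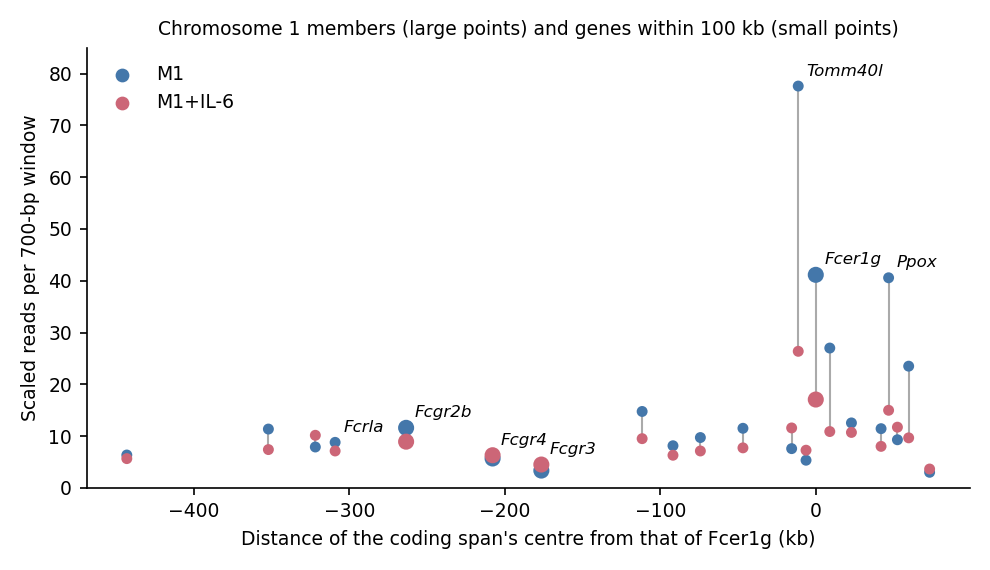
Signal of the genes of chromosome 1 within 100 kb of a member, in reads (M1) and scaled reads (M1+IL-6) per 700-bp window, against the distance of each gene's centre from that of Fcer1g in kb. Fcgr4 (5.67 in M1) and Fcgr3 (3.33 in M1) are the lowest members, and Fcer1g went from 41.1 to 17.1 with the deposited scaling, a direction that turns under the scaling by strong windows.

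A list of 55 genes held relatives of the Fc receptors, partner adaptors, and kinases, adaptors, effectors and inhibitors of Fc receptor signalling. Of these, 54 had a row and all of those had at least 40 reads. As the list includes 13 relatives of the receptors, values over all 54 are not those of the signalling genes alone. Of the 54, 4 were 2-fold or more lower, beside 13.5% of the 18204 genes, and 1 was 2-fold or more higher, beside 1.18%. The median log2 ratio was -0.19, with 32 genes lower and 22 higher. The 13 relatives of the Fc receptors had a median of 0.55, the interval lying above 1 for 6 of them, beside 28.9% of the 18204 genes, and below 1 for 1, beside 34.8%. Most of these 6 lie close to another of them, on chromosome 1 or 3, so they are not separate loci. The highest relative was Fcer1a, the IgE-binding chain that pairs with Fcer1g, with 21 reads in M1 and 45 in M1+IL-6 (log2 ratio 1.14). The lowest was Fcgrt, the neonatal Fc receptor that rescues IgG from degradation, with 245 and 141 reads (-0.74).

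Of the 3 partner adaptors, Hcst (DAP10) had 417 reads in M1 and 107 in M1+IL-6 (-1.90) and Tyrobp (DAP12), which like Fcer1g carries an activating motif for innate receptors, had 175 and 77 (-1.13). Cd247, the zeta chain of T cells, stood at 0.05. Tyrobp and Hcst lie side by side on chromosome 7, at 31198858-31202428 and 31202825-31204765, so their values are not those of separate loci. Tyrobp, with a ratio of 0.457 (0.345 to 0.601), lay near Fcer1g, and the ratio of Hcst, 0.266 (0.213 to 0.330), was lower than that of Fcer1g, their intervals not meeting. The 9 kinases had a median of -0.04 and none reached 2-fold, from Tec at -0.42 to Yes1 at 0.49. The 20 adaptors and effectors had a median of -0.26, and the interval lay below 1 for 12 (beside 34.8% of the 18204 genes) and above 1 for 3 (beside 28.9%). Among them Lat2, a membrane scaffold, had 836 and 285 reads (-1.50), Rac2, the GTPase of phagocyte actin and oxidase, had 1453 and 502 (-1.48), and Vav3, an exchange factor for such GTPases, was the highest at 0.41.

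The 9 inhibitors had a median of -0.68, with the interval below 1 for 7 and above 1 for none, beside the same 34.8% and 28.9%, but none reached 2-fold. The lowest was Inpp5d (SHIP1), the lipid phosphatase that Fcgr2b recruits, with 3209 reads in M1 and 1550 in M1+IL-6 (-1.0), and the highest was Csk, which holds Src kinases inactive, at 0.27. Fcgr2b itself was at -0.38, between these. The roles also differed in signal. In M1 the median level was 29.2 reads per window for the partner adaptors, 15.7 for the inhibitors and 12.8 for the adaptors and effectors. It was 8.64 for the kinases and 5.71 for the relatives, so roles with more signal had lower median ratios. The part of signal in these medians was not tested.

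**Figure D5:**
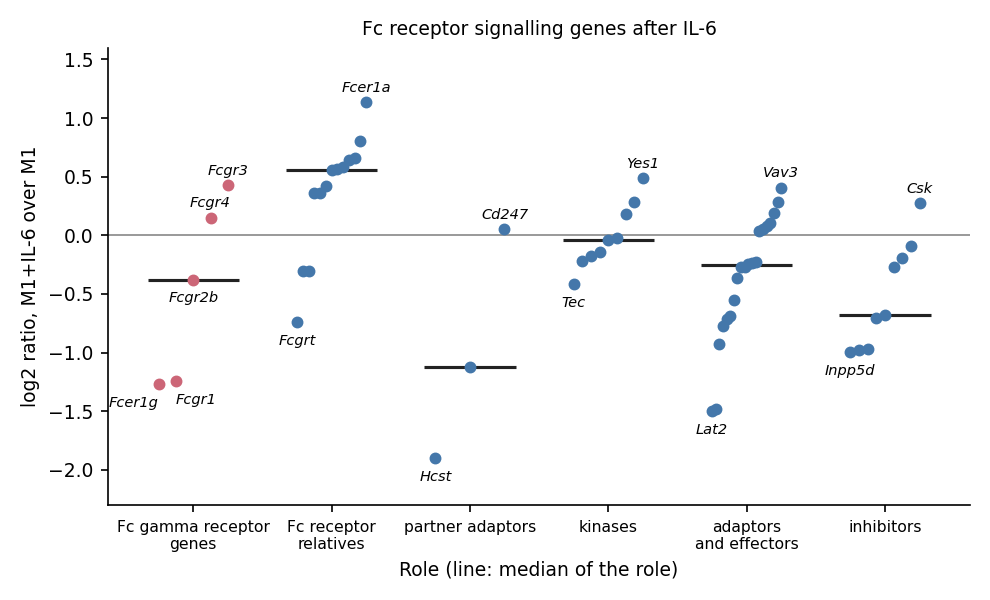
Log2 ratio of M1+IL-6 over M1 for the 5 members (red) and 54 listed relatives and signalling genes (blue) by role. A line marks the median of each role. The partner adaptors (median -1.13) and the inhibitors (-0.68) lie lowest and the relatives of the Fc receptors (0.55) highest. Roles with more median signal in M1 had lower medians, from 29.2 reads per window (partner adaptors) to 5.71 (relatives). Under the scaling by strong windows every point moves up by 1.83.

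The gene nearest to each member in level over the 2 libraries was sought among genes with a number of windows within 25%. Ddrgk1 was nearest to Fcgr1 (32.4 reads per window in M1 and 13.6 scaled reads per window in M1+IL-6) and Tor2a to Fcer1g (42.2 and 17.4). Med30 was nearest to Fcgr2b (11.4 and 8.88), Bnip2 to Fcgr4 (5.59 and 6.41) and Serpinb9c to Fcgr3 (3.33 and 4.50). These pairs differed by 0.0045 to 0.047 on the log2 scale. With 2 libraries such likeness says only that both levels were close.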

How the data were processed

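DHS-seq was analysed in 1 library of M1 cells and 1 library of M1+IL-6 cells. The authors digested nuclei with DNase I, sequenced short fragments, aligned trimmed reads to NCBIM37 with BWA and summarized them per transcript in a table with the layout of a Seqmonk report. The deposited signal values are the mean and SD of reads over the 700-bp windows that a coding span touches. Read length, versions and the treatment of reads with several matches were not given in the sources used here.

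Reads were recovered as mean times windows, divided by the worth of 1 read (1 in M1 and 1.03816 in M1+IL-6). All 55432 rows gave whole reads within 0.05. The row with the most windows stood for a gene. Of a pair of Fcgr1 rows with 15 windows the first listed was used. The 12 rows of the members matched GENCODE M1 coding spans within 3 bp. Counts of genes used at least 40 reads over both libraries, and log2 ratios across genes added 0.5 reads. The genes named were the members, their neighbours within 100 kb, the highest and lowest gene of each role and the gene nearest in level. Some neighbours are not reported here. Rac2 and Tyrobp were added after their values were seen. The members and lists were chosen with earlier results of these data known. Intervals and window bounds were tested on simulated data. With 1 library per condition no p-value is given. Alternatives covered the scaling, the reads added, the fold, the minimum of reads, the transcript and the length of sequence searched. Tools were numpy 2.4.6, scipy 1.17.1, pandas 2.3.3 and matplotlib 3.10.9 under Python 3.11.15.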

Additional observations from a re-analysis of the deposited data

How the results depend on the processing

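The scaling between the libraries decided the directions. With the median of ratios over 544 single windows of at least 22 reads in both libraries, 1 IL-6 read was worth 3.68 and log2 ratios shifted by 1.83. The members' median log2 ratio then became 1.45, Fcgr1 0.59, Fcgr2b 1.45 and Fcer1g 0.56, all in the opposite direction, and Fcgr3 and Fcgr4 became 2.25 and 1.98. That set of windows was itself chosen for signal in both libraries. Under it the strongest window of Fcer1g in M1+IL-6 could reach 169 and that of Fcgr1 236 scaled reads, so their ranges met those of M1. No scaling, the total over spans (1.07) and the median of ratios over 17545 genes (1.03) moved log2 ratios by -0.05, 0.04 and -0.01. The ratios of ratios do not depend on any scaling by a single factor per library. A scaling that varies with signal could change them and was not tried.

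Of the 18204 genes with at least 40 reads, 2456 were 2-fold or more lower. This became 4249 at 1.5-fold and 15 under the median of ratios over windows. The 214 higher became 1820 at 1.5-fold, 46 with at least 100 reads, 1092 without a minimum and 15117 under that scaling. In the signalling list the 4 lower became 14 at 1.5-fold and 0 under that scaling, and the 1 higher became 4 at 1.5-fold, 0 with at least 100 reads and 46 under that scaling. With its other transcript of 15 windows, an alternative chosen after seeing the data, the M1 level of Fcgr1 was 37.5 reads per window, and with the transcript of fewest windows that of Fcgr3 was 5.0. Over 20 results, 49 of 73 alternative values stayed within the limits set for a change, 20 moved and 4 reversed. Some of the 49 could not differ. Fcer1g, Fcgr4 and Fcgr2b had 1 set of windows each, so choosing another transcript returned the same value. The members' median was the value of Fcgr2b and moved with it. The tally is thus no measure of robustness. No window was shared with another gene, so leaving such windows out gave no value. No paired analysis was possible because there was 1 library per condition. Depth limits Fcgr3 and Fcgr4 most, with 92 and 176 reads over both libraries.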
